A study of Mus musculus with 8 samples.

Results

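Cytosolic ribosomal proteins are the protein components of the large and the small ribosomal subunit, each made from its own nuclear gene. The genes were taken by symbol from the deposited gene lists: Rpl or Rps (with p for the stalk proteins), a number and at most 1 further letter a, l or x, and also Rpsa. The 10 Rps6k kinases, which modify a ribosomal protein but are not part of the ribosome, and 3 listed pseudogene entries were left out. This gave 81 genes of 23235 listed, 49 of the large subunit and 32 of the small subunit. In the mouse annotation of the build mm9, 4 of the 81 lie on chromosome X (Rpl10, Rpl36a, Rpl39 and Rps4x), 76 lie on other chromosomes, and Rpl41 could not be matched.

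The study asked what CNOT4, a ubiquitin ligase that works with the CCR4-NOT deadenylase, does in male meiosis. RNA was sequenced from sorted mouse spermatocytes of 2 genotypes at 2 stages. The 4 groups have 2 libraries each, 8 in all. LZ stands for leptotene and zygotene, the early part of meiotic prophase, and PD for pachytene and diplotene, the later part. The methods give 6-week-old males of the strain C57BL/6 and a sort by Hoechst and propidium iodide fluorescence. The genotype that the labels call Cnot4-KO, here Cnot4-null, is Cnot4 fl/fl;Stra8-Cre, in which a Cre recombinase driven by the Stra8 promoter deletes the floxed exon in male germ cells before meiosis, so that other testis cells keep the gene. The other genotype is wild type (WT). For library preparation the sources differ: the labels name Trizol extraction and a TruSeq kit on total RNA, and the methods name direct lysis of sorted cells and Smart-Seq2 amplification.

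Values are FPKM, by definition the fragments of a gene scaled by transcript length and by the mapped reads of the library. Which library normalization was applied to the deposited values is uncertain. Relative depths read from the lowest values do not match the read totals and mapping given in the paper. Read counts were not used here. Changes are on the scale of log2(FPKM + 1), which understates the change of low genes. Each was tested with limma over the 15899 genes above 1 FPKM in at least 1 library, and a gene is called, or said to have risen or fallen, where its p, adjusted over all tested genes, is under 0.05. All 81 ribosomal protein genes passed this filter. Standard errors (SE) come from that fit, with 2 libraries per group.

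Ribosomal protein mRNAs are among the most abundant mRNAs of most cells and tend to be made and translated together. During pachytene the X and Y chromosomes of a spermatocyte are transcriptionally silenced, a process called meiotic sex chromosome inactivation. Several X-linked ribosomal protein genes have copies on other chromosomes, some of them intronless retrogenes, that are used in the male germ line. CCR4-NOT shortens poly(A) tails, and its yeast Not4 subunit is known to ubiquitinate ribosomal proteins.

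The summed markers of each stage separated the LZ and PD libraries, though not each gene of the lists did. The summed FPKM of 12 pachytene and diplotene markers, led by Ldhc in 7 of the 8 libraries, was 277 and 406 (WT LZ), 293 and 137 (Cnot4-null LZ), 12918 and 12090 (WT PD) and 5991 and 2218 (Cnot4-null PD). That of 9 leptotene and zygotene markers was 2408 and 2606 (WT LZ), 4681 and 2674 (Cnot4-null LZ), 1455 and 1528 (WT PD) and 1299 and 710 (Cnot4-null PD), and Sycp3 had the highest value of the list in 6 of the 8 libraries. The most abundant of the other 2, WT LZ replicate 1 and Cnot4-null LZ replicate 2, was Tex101. Limma called 6 of these 9 lower at PD in WT, with Sycp3 and Hormad1 in neither direction, and 8 lower in Cnot4-null, and it called Spo11 higher in both genotypes. Of all tested genes 36.2% were lower and 21.6% higher at PD in WT, and 18.2% and 27.8% in Cnot4-null.

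Markers of other cells were high in the libraries labelled Cnot4-null PD. The sort by Hoechst and propidium iodide was meant to collect spermatocytes of each stage and so to leave other cells out. The paper reports SYCP3 and pH2AX staining as showing that the sorted cells were pure and of the right stage. The 9 Leydig cell markers, genes of the steroid-producing cells between the tubules, summed to 18.0 and 11.2 FPKM (WT LZ), 10.9 and 19.02 (Cnot4-null LZ), 117 and 7.15 (WT PD) and 10087 and 22322 (Cnot4-null PD), where all 9 were above 1 FPKM and higher than in WT PD by limma and Insl3 alone reached 9669 and 21608. At 0 in WT PD replicate 2 were Cyp17a1, Hsd3b6, Cyp11a1, Lhcgr and Hsd17b3. The 12 spermatid markers summed to 1876 and 1591 (WT LZ), 4121 and 756 (Cnot4-null LZ), 745 and 591 (WT PD) and 16466 and 7718 (Cnot4-null PD), with Prm1 the most abundant in 6 libraries. This sum was highest in the 2 PD libraries of the null genotype, where limma called 10 of the 12 higher than in WT PD, Crem lower and Acr in neither direction. In that comparison 41.6% of all tested genes were higher and 11.5% lower.

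Further lists had lower sums than these in the Cnot4-null PD libraries. The 12 spermatogonia markers, led by Uchl1 outside WT PD and by Id4 in it, summed to 774 and 733 (WT LZ), 536 and 707 (Cnot4-null LZ), 70.6 and 84.9 (WT PD) and 397 and 513 (Cnot4-null PD). The 11 Sertoli cell markers that are listed, led by Ctsl at LZ and by Clu at PD, summed to 191 and 161, 137 and 100.4, 18.5 and 35.5, and 157 and 292 in the same order of groups, with Amh at 0 in 7 libraries. The 8 macrophage markers, led by Lyz2 in the PD libraries, gave 42.1 and 1.46, 15.6 and 3.72, 3.04 and 2.43, and 30.2 and 134. For the 9 peritubular and endothelial markers the sums were 4.37 and 5.15, 3.76 and 2.101, 4.001 and 2.56, and 65.7 and 299, with Acta2 the most abundant in Cnot4-null PD. Of 5 erythroid markers the 4 globin genes were at 0 in all 8 libraries and Alas2 reached 0.936 at most. The part of these other cells in any result on the Cnot4-null PD libraries below was not tested, and fewer cells of a type and less RNA per cell cannot be told apart in bulk samples.

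**Figure D1:**
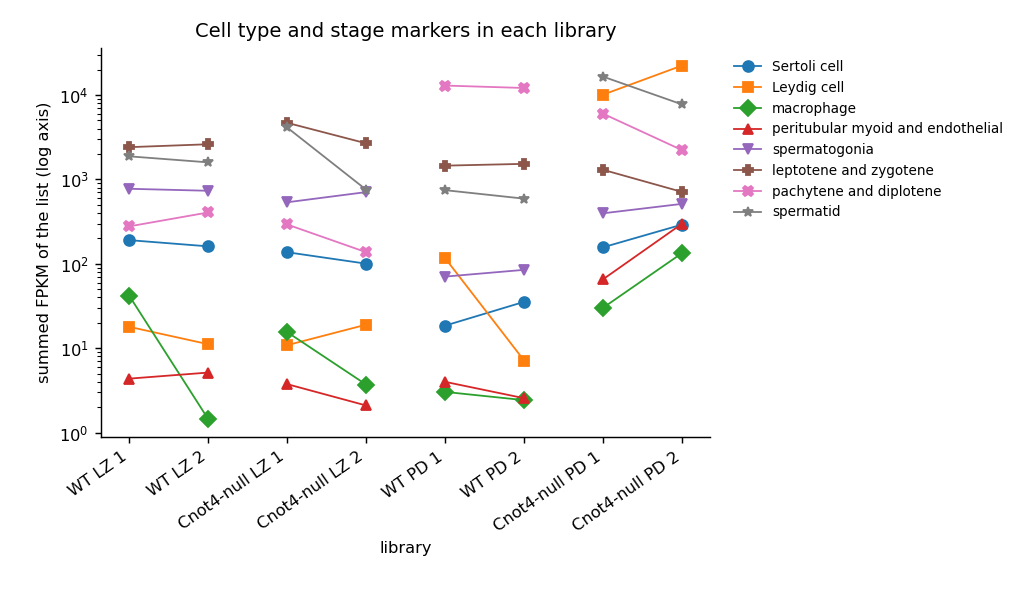
Summed FPKM (log axis) of the stage and cell type marker lists other than the erythroid list, with 1 point per library and a line joining the 2 libraries of a group. The Leydig list stands at 10087 and 22322 in the Cnot4-null PD libraries and at 117 or less in the other 6.

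Ribosomal protein mRNA made up much more of the summed FPKM at LZ than at PD. The 81 genes held 21.0 and 20.7% (WT LZ), 20.6 and 20.4% (Cnot4-null LZ), 8.12 and 8.04% (WT PD) and 12.8 and 12.5% (Cnot4-null PD). All 4 PD libraries lie below all 4 LZ libraries, and the groups of the genotypes do not overlap at PD. The mean fell by 10.3 percentage points from LZ to PD (20.7 to 10.4%, 4 libraries per stage with genotypes pooled, exact two-sided permutation test, p = 0.0286, the smallest that 4 against 4 can give). The test shuffled libraries across genotypes, so it took no account of the genotype difference at PD. Between genotypes at 1 stage, 2 libraries against 2 cannot reach an exact p under 0.05 in the permutation test chosen, and no other test was run on the share, so those values stand without one.

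Both subunits shared in this. The large subunit genes went from a mean of 10.5% at LZ to 5.63% at PD and the small subunit genes from 10.2% to 4.74% (exact permutation test, p = 0.0286 for each). In WT PD the large subunit held 4.42 and 4.39% and the small subunit 3.70 and 3.65%. Rps28, the highest member, did not set the result: without it the mean fell by 9.47 points (exact permutation test, p = 0.0286).

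**Figure D2:**
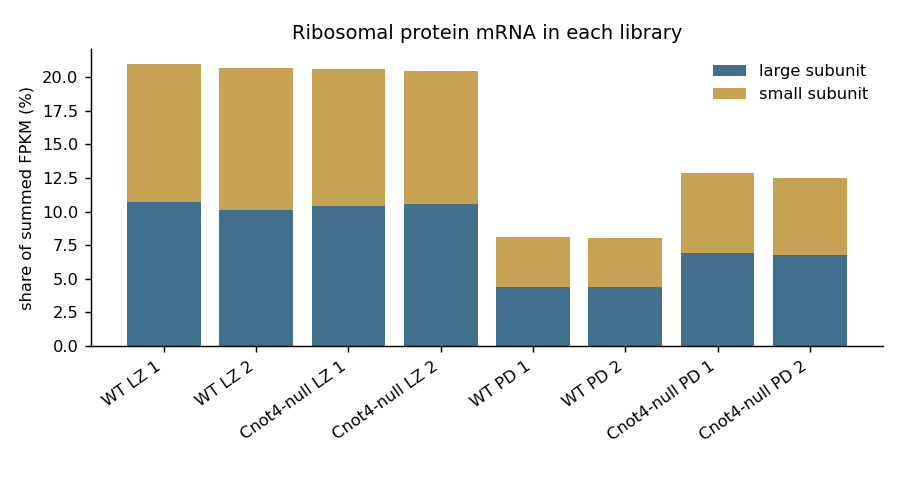
Share of the summed FPKM of each library held by the large subunit genes (lower part of each bar) and the small subunit genes (upper part). The total is 20.4 to 21.0% in the 4 LZ libraries, 8.04 and 8.12% in the WT PD libraries, and 12.5 and 12.8% in those of Cnot4-null PD.

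The members span a wide range of levels. The 3 with the highest mean FPKM over the 8 libraries were Rps28 (7593, the highest of all listed genes), Rpl41 (5248) and Rpl38 (5165), all genes of very small proteins. The 3 lowest were Rpl3l (2.42), Rps4x (78.5) and Rps15a (104). The median member stood at 1461 and 1245 FPKM (WT LZ), 1642 and 1330 (Cnot4-null LZ), 541 and 528 (WT PD) and 1199 and 852 (Cnot4-null PD).

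Rps28, a small subunit protein near the mRNA exit, was listed at 10514 and 9352 (WT LZ), 12645 and 9671 (Cnot4-null LZ), 3889.6 and 4084 (WT PD) and 6319 and 4268 (Cnot4-null PD). Both PD groups were below both LZ groups. Rpl41, the smallest ribosomal protein, had 6364 and 6436 (WT LZ), 5894 and 5637 (Cnot4-null LZ), 4817 and 5184 (WT PD) and 4711 and 2939 (Cnot4-null PD). Its lowest value was that of Cnot4-null PD replicate 2. For Rps15a, a protein of the small subunit, the values were 131 and 132 (WT LZ), 172 and 137 (Cnot4-null LZ), 58.8 and 64.9 (WT PD) and 84.5 and 54.4 (Cnot4-null PD).

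Replicates of the members were least close in Cnot4-null PD. The median ratio of the higher to the lower library over the members was 1.08 (WT PD), 1.13 (WT LZ), 1.16 (Cnot4-null LZ) and 1.31 (Cnot4-null PD). In that last group 21 members differed by more than 1.5 times, and replicate 2 was the lower for 74 of the 81. It was also the lower for 73 in Cnot4-null LZ, 63 in WT LZ and 52 in WT PD. Among all tested genes replicate 2 was the lower for 52.7% in Cnot4-null PD, 59.8% in Cnot4-null LZ, 51.2% in WT LZ and 51.7% in WT PD, and the median ratio was 1.60, 1.28, 1.30 and 1.15 in the same order. The summed FPKM of the 2 Cnot4-null PD libraries, 893372 and 676452, differed 1.32 times, near the median ratio of the members. Rps27, which carries a zinc finger of the small subunit, was among the least even members, with 4809 and 6668 (WT LZ), 2790.4 and 884 (Cnot4-null LZ), 2486 and 1088 (WT PD) and 2655 and 739 (Cnot4-null PD). Its libraries overlap between all groups other than WT LZ against the rest.

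From LZ to PD in WT, the comparison that shows normal prophase, most ribosomal protein genes fell. Limma called 59 of 81 lower and 2 higher, against 36.2% lower and 21.6% higher among all tested genes. The median member changed by -1.31 on the log2 scale and the median of all tested genes by -0.32, a difference of -0.998. Both WT PD libraries were below both WT LZ libraries for 75 members and above for 3, and among all tested genes for 50.2% and 31.0%. Of the large subunit genes 34 of 49 fell and of the small subunit genes 25 of 32. The members between the quartiles lay between -2.04 and -0.67, a spread of 1.37, and those of all tested genes between -1.45 and 0.65.

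Scaling moved the size of this and not its direction. As deposited, the median of all genes differed between the groups, and forcing the libraries to 1 distribution (quantile normalization) moved it from -0.32 to -0.09. There 73 members were called lower and 2 higher, against 31.2% and 25.9% of all tested genes, and the median member lay 1.56 below all genes. Rescaling each library to a shared median moved it to -0.12, with 55 called lower and 3 higher, against 31.3% and 26.3%, and the members 0.80 below all genes.

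**Figure D3:**
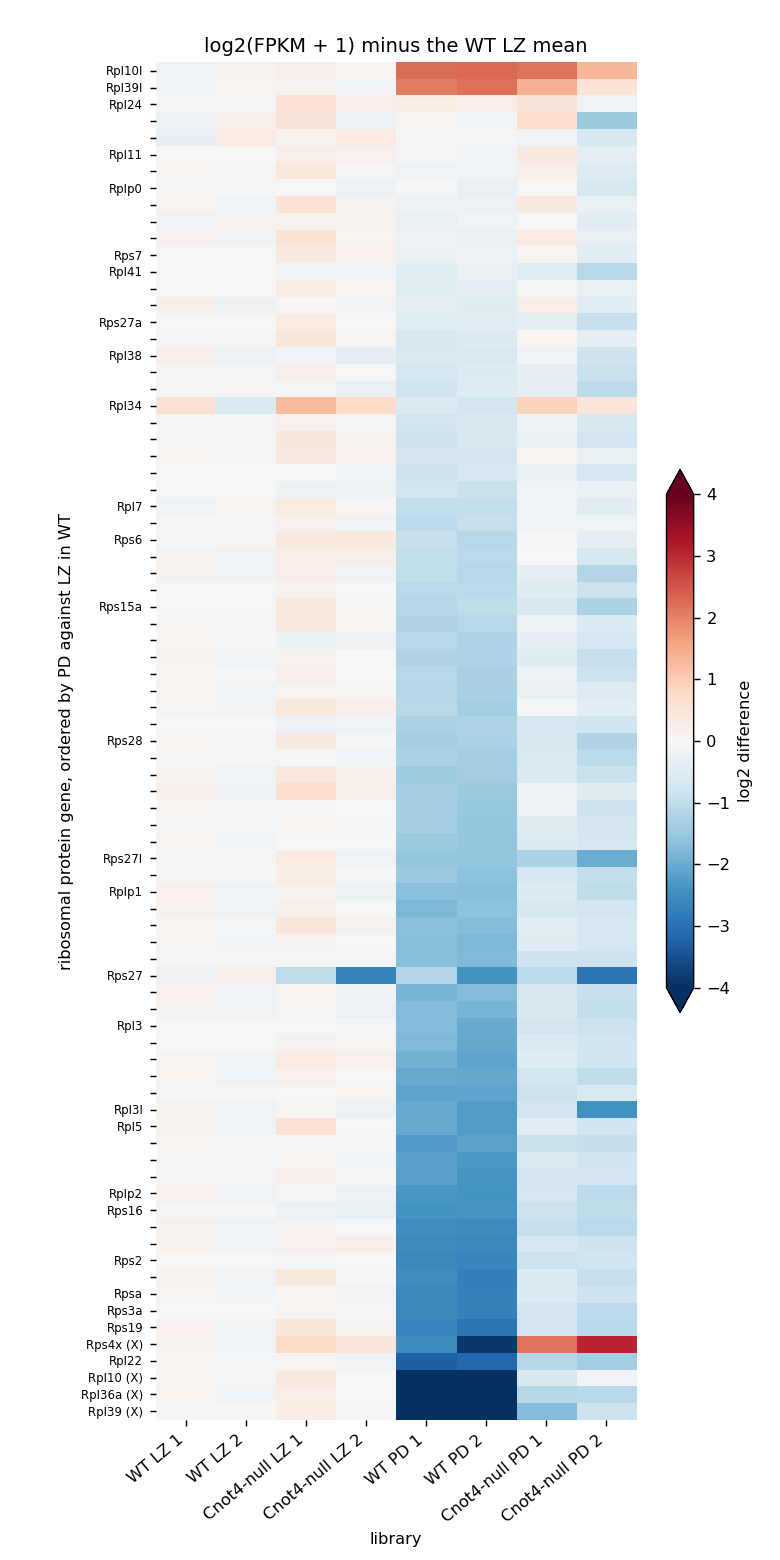
Level of each ribosomal protein gene in each library as log2(FPKM + 1) minus its mean in WT LZ, ordered by the change from LZ to PD in WT, with the colour scale ending at 4 in both directions X marking the 4 X-linked genes and names given for genes described in the text. Genes that fell in WT are towards the bottom, with Rpl39 last, and Rpl10l and Rpl39l, which rose, are at the top.

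Among the members outside chromosome X, Rpl22 fell most. Rpl22, a protein at the surface of the large subunit that also binds RNA elsewhere, had 325 and 297 (WT LZ), 333 and 283 (Cnot4-null LZ), 31.7 and 34.4 (WT PD) and 141 and 119 (Cnot4-null PD). It fell by 3.20 in WT (SE 0.19, adjusted p = 2.41e-05), and the WT PD libraries stand apart from the other 6. Further large falls were in genes of the small subunit, named here after their values were seen. Rps19, needed to mature the small subunit and mutated in Diamond-Blackfan anaemia, fell by 2.76 (SE 0.26, adjusted p = 0.000113). Rps3a fell by 2.64 (SE 0.20, adjusted p = 5.33e-05), Rpsa, also known as the laminin receptor, by 2.63 (SE 0.20, adjusted p = 5.45e-05), and Rps2 by 2.60 (SE 0.18, adjusted p = 3.64e-05). The mean WT PD level of these 4 genes was 14.7 to 16.5% of that in WT LZ.

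Not every member was called. In WT 20 had no call, Rpl11, Rpl24, Rpl34, Rpl38, Rpl41, Rplp0, Rps7, Rps27 and Rps27a among them. A missing call does not show that a level stayed the same. Rps27 stood at -1.78 (SE 0.76), below the median member at -1.31. Of all 20, Rpl24 had the only change above 0, 0.28 (SE 0.26, adjusted p = 0.422), and it passed the test with rescaling to a shared median, at 0.66. Rps7, whose yeast homolog is a substrate of Not4, had 1176 and 1134 (WT LZ), 1471 and 1296 (Cnot4-null LZ), 959 and 984 (WT PD) and 1225 and 863 (Cnot4-null PD). Its change in WT was -0.25 (SE 0.23, adjusted p = 0.412). With quantile normalization it was called lower, at -0.56.

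Some partners within the ribosome are given here, named for their roles after their values were seen. Rpl5 and Rpl11 enter the ribosome together with the 5S rRNA. Rpl5 fell by 2.13 (SE 0.27, adjusted p = 0.000435), and Rpl11 stood at -0.10 (SE 0.27, adjusted p = 0.800). Of the stalk that recruits elongation factors, Rplp2 fell by 2.35 (SE 0.23, adjusted p = 0.000137) and Rplp1 by 1.68 (SE 0.27, adjusted p = 0.00136), and its base Rplp0 stood at -0.19 (SE 0.26, adjusted p = 0.587). Rps6, the target of the S6 kinases, fell by 1.01 (SE 0.21, adjusted p = 0.00402). Rpl11 and Rplp0 passed the test with quantile normalization, at -0.47 and -0.49. Whether the change of 1 gene differs from that of another was not tested.

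Among the most abundant members, Rps28 fell by 1.31 (SE 0.30, adjusted p = 0.00710), a call lost with testing all listed symbols and without WT LZ replicate 1 or either WT PD library (log2 change between -1.69 and -0.93 over 17 alternatives). Rpl38 and Rpl41 were at -0.60 (SE 0.32, adjusted p = 0.146) and -0.36 (SE 0.29, adjusted p = 0.340). Rps15a fell by 1.08 (SE 0.25, adjusted p = 0.00710), a call lost without WT PD replicate 1 (log2 change between -1.37 and -0.70 over 17 alternatives).

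Of the 4 X-linked members 3 had the largest falls of all in WT, and Rps4x came next after Rpl22. Rpl39, a short protein that lines the exit tunnel of the large subunit, was listed at 1057 and 1134 (WT LZ), 1335 and 1045 (Cnot4-null LZ), 13.5 and 8.02 (WT PD) and 329.6 and 605 (Cnot4-null PD). The WT PD libraries held 0.981% of the WT LZ mean, and no other library came near them. For Rpl36a, another large subunit protein, the values were 1461 and 1245 (WT LZ), 1581 and 1329 (Cnot4-null LZ), 23.4 and 11.9 (WT PD) and 612 and 627 (Cnot4-null PD). Rpl10, which joins the large subunit late in its assembly, had 849 and 746 (WT LZ), 1019 and 796 (Cnot4-null LZ), 25.4 and 15.5 (WT PD) and 511 and 736 (Cnot4-null PD). In both of these genes the WT PD libraries were far below all others, at 1.30% of WT LZ for Rpl36a and 2.56% for Rpl10.

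Rps4x, of the small subunit, was low throughout, with 37.7 and 30.7 (WT LZ), 58.2 and 48.4 (Cnot4-null LZ), 5.15 and 1.40 (WT PD) and 158 and 288 (Cnot4-null PD). It differs from the other 3 in that Cnot4-null PD was the highest group, above both LZ groups. In WT the log2 changes from LZ to PD were -6.58 for Rpl39 (SE 0.35, adjusted p = 1.93e-05), -6.25 for Rpl36a (SE 0.31, adjusted p = 1.69e-05), -5.26 for Rpl10 (SE 0.30, adjusted p = 2.17e-05) and -3.19 for Rps4x (SE 0.47, adjusted p = 0.000819). The median over the 4 was -5.75, and that of the other 77 members -1.23.

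Most other tested genes of chromosome X fell in WT too. Of 992 listed and 649 tested X-linked genes outside the ribosomal protein family, 402 fell and 6 rose in WT, against 36.2% and 21.6% of all tested genes, with a median of -1.76. The median level of those tested was 3.60 and 3.67 FPKM (WT LZ) and 0.246 and 0.211 (WT PD), where the scale of log2(FPKM + 1) understates a change. In Cnot4-null 213 fell and 127 rose, against 18.2% and 27.8%. With quantile normalization 293 fell and 73 rose there, against 30.6% and 19.1%. Of the 3 with the highest mean level, Ndufa1, a subunit of respiratory complex I, was listed at 1275 and 1508 (WT LZ), 1787 and 1018 (Cnot4-null LZ), 95.7 and 95.4 (WT PD) and 370.4 and 289 (Cnot4-null PD) and fell by 3.85 (SE 0.30, adjusted p = 5.30e-05). Prdx4, a peroxiredoxin of the endoplasmic reticulum, had 563 and 402 (WT LZ), 702 and 459 (Cnot4-null LZ), 8.80 and 6.24 (WT PD) and 176 and 166 (Cnot4-null PD) and fell by 5.82 (SE 0.29, adjusted p = 1.69e-05). The other, the microRNA entry Mir680-2, is a small RNA for which FPKM is unreliable. It had 955 and 956 (WT LZ), 0 and 213 (Cnot4-null LZ), 1341 and 1228 (WT PD) and 1344 and 1638 (Cnot4-null PD), stood at 0.43 in WT (SE 2.04, adjusted p = 0.902) and was called higher at PD in Cnot4-null, by 6.67 (SE 2.04, adjusted p = 0.0326), a call lost with testing all listed symbols or fitting the compared groups alone or a pseudocount of 0.1 and without either Cnot4-null PD library or either WT LZ library or either WT PD library (log2 change between 2.80 and 10.54 over 16 alternatives). The X-linked members together summed to 3405 and 3156 FPKM (WT LZ), 3994 and 3218 (Cnot4-null LZ), 67.3 and 36.8 (WT PD) and 1612 and 2257 (Cnot4-null PD). At PD those sums made up 0.0973 and 0.0541% of all ribosomal protein FPKM in WT and 1.41 and 2.67% in Cnot4-null, against 2.13 to 2.36% in the LZ libraries.

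**Figure D4:**
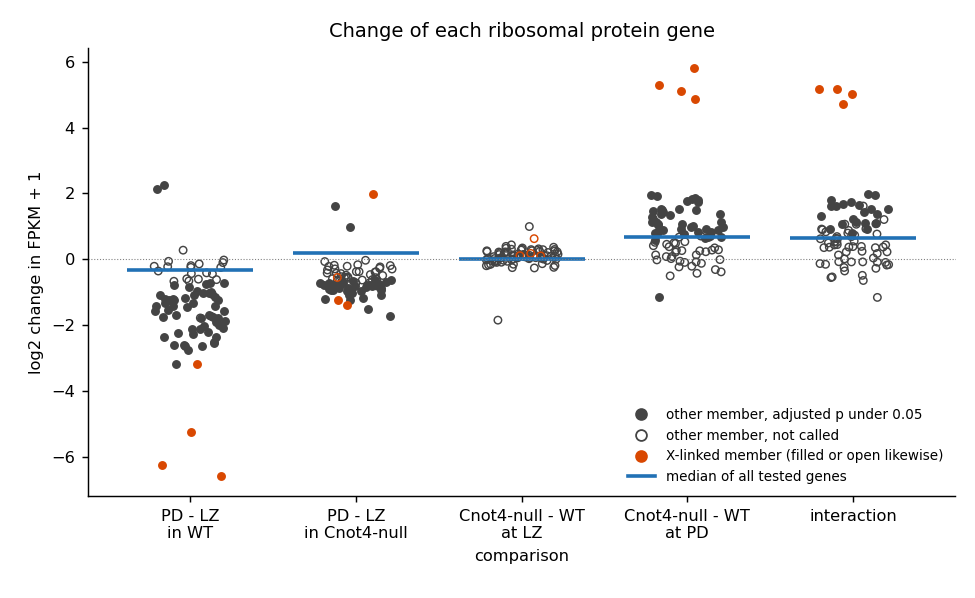
Log2 change of each of the 81 genes in the 5 comparisons, with filled points called by limma, open points not called, X-linked genes in orange and a blue line at the median of all tested genes. Other members centre near -1.23 in WT and -0.68 in Cnot4-null from LZ to PD, and the 4 X-linked genes reach -3.19 to -6.58 in WT. Positions of the members against the blue line at PD change side with the scaling.

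Between LZ and PD in the null genotype, limma called 40 of 81 lower and 3 higher (Rpl10l, Rpl39l and Rps4x), against 18.2% lower and 27.8% higher among all tested genes. The median member changed by -0.68 and the median gene by 0.19, a difference of -0.86. Both Cnot4-null PD libraries were below both Cnot4-null LZ libraries for 66 members and above for 3, and among all tested genes for 31.1% and 40.3%. The members between the quartiles spread over 0.41, from -0.83 to -0.42. Of the 59 genes that fell in WT and the 40 that fell here, 39 were shared, 66.1% of the former and 97.5% of the latter, and Rps27a was called lower here and not in WT, at -0.80 (SE 0.26, adjusted p = 0.0378), a call lost with testing all listed symbols or fitting the compared groups alone and without either Cnot4-null LZ library or Cnot4-null PD replicate 2 or either WT LZ library or either WT PD library (log2 change between -1.08 and -0.52 over 16 alternatives).

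That count leans on single libraries. Without either Cnot4-null LZ library, or any 1 of the 4 WT libraries, fewer members and fewer of all tested genes were called lower. Without Cnot4-null PD replicate 1 more of both were, and without replicate 2 fewer members but more of all tested genes. Without Cnot4-null LZ replicate 1 the share of members called lower was below that of all tested genes. The median member lay 0.82 and 0.92 below the median gene without Cnot4-null LZ replicate 1 and 2, and 1.00 and 0.66 below it without Cnot4-null PD replicate 1 and 2. With the groups compared fitted alone 3 members were called lower, a share below the 7.94% of all tested genes. With all listed symbols tested 22 were, against 10.8% of the genes tested there. Quantile normalization gave 52 lower and 3 higher, with the median of all genes at -0.26 and the members 0.26 below it, and rescaling gave 59 lower and 3 higher, with the members 0.88 below all genes. With rescaling the count in WT was 55, so which genotype had more members called lower depends on the scaling, and the difference between the counts was not tested. Of all tested genes, 4423 were called higher and 2893 lower as deposited, and 3044 and 4867 with quantile normalization.

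The lowest values in the null genotype were those of Rps27l and Rpl3l. Rps27l, the p53-responsive relative of Rps27, had 2940.0 and 3141 (WT LZ), 3784 and 2748 (Cnot4-null LZ), 1028 and 1029 (WT PD) and 1251 and 760.3 (Cnot4-null PD) and fell by 1.72 (SE 0.30, adjusted p = 0.00360). In WT it fell by 1.56 (SE 0.30, adjusted p = 0.00305). Rps4x had the largest, 1.99 (SE 0.47, adjusted p = 0.0118), a call lost with testing all listed symbols and without either Cnot4-null LZ library or Cnot4-null PD replicate 2 (log2 change between 1.56 and 2.42 over 16 alternatives). Rpl10 stood at -0.55 (SE 0.30, adjusted p = 0.165). Rpl36a fell by 1.22 (SE 0.31, adjusted p = 0.0152), a call lost with testing all listed symbols and without either Cnot4-null LZ library or either Cnot4-null PD library (log2 change between -1.35 and -1.10 over 16 alternatives). Rpl39 fell by 1.40 (SE 0.35, adjusted p = 0.0149), a call lost with testing all listed symbols or fitting the compared groups alone and without either Cnot4-null LZ library or Cnot4-null PD replicate 1 (log2 change between -1.84 and -0.96 over 16 alternatives).

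At LZ no ribosomal protein gene differed by genotype. Limma called 0 of 81 in either direction, and 1 higher and 1 lower had an unadjusted p under 0.05. Among all 15899 tested genes it called 11 higher (0.0692%) and 4 lower (0.0252%), and 436 and 577 had an unadjusted p under 0.05. The median member stood at 0.10 and the median gene at 0.00. Both Cnot4-null libraries were above both WT libraries for 22 members and below for 8, against 18.2% and 18.0% of tested genes. A p that misses the threshold does not show that levels were equal.

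The largest value at LZ was that of Rpl34. This gene of the large subunit had 1677 and 747 (WT LZ), 2693 and 1850.3 (Cnot4-null LZ), 747 and 663 (WT PD) and 2115 and 1562 (Cnot4-null PD), a change of 1.00 at LZ (SE 0.41, adjusted p = 0.764). Rps4x followed at 0.63 (SE 0.47, adjusted p = 0.943). At the other end stood Rps27 at -1.85 (SE 0.76, adjusted p = 0.764) and Rps16 at -0.26 (SE 0.20, adjusted p = 0.943).

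At PD the null genotype had more ribosomal protein mRNA than WT, and how this compares with the median gene depends on the settings. Limma called 46 of 81 members higher and 1 lower (Rpl39l), against 41.6% higher and 11.5% lower among all tested genes. The median member changed by 0.74 and the median gene by 0.66, a difference of 0.07. The filter admits a gene above 1 FPKM in any 1 library. More genes were above 1 FPKM in Cnot4-null PD (13887 and 14249) than in WT PD (10103 and 10076). With a mean FPKM of at least 5 the median gene stood at 0.30 and the members lay 0.45 above it. Both Cnot4-null PD libraries were above both WT PD libraries for 56 members and below for 4, and among all tested genes for 58.2% and 23.1%. The share of higher calls was above that of all genes in this fit. With the PD groups fitted alone it was below, at 23 members against 32.6% of all tested genes. Where the members stand against all genes thus depends on the scaling and on other choices. With quantile normalization, which moved the median gene to -0.05, 65 members were called higher and 1 lower and they lay 1.19 above all genes, and with rescaling, which moved it to 0.42, 33 were called higher and 7 lower and they lay 0.09 below, at -0.09.

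The split among all genes moved as well. As deposited 6619 were higher and 1830 lower at PD, with quantile normalization 2982 and 3977, and with rescaling 5522 and 3630. Without either WT PD library fewer members and fewer of all tested genes were called higher. The median member lay 0.11 above the median gene without WT PD replicate 1 and 0.04 above it without WT PD replicate 2. With the PD groups fitted alone 23 members were called higher, against 32.6% of all tested genes. Leydig cell, spermatid and other markers stood high in the same Cnot4-null PD libraries, as given above, and their part in these counts was not tested.

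The members that differed most at PD were those on chromosome X. Rps4x was higher by 5.81 (SE 0.47, adjusted p = 0.000215), Rpl39 by 5.29 (SE 0.35, adjusted p = 0.000137), Rpl36a by 5.13 (SE 0.31, adjusted p = 0.000108) and Rpl10 by 4.88 (SE 0.30, adjusted p = 0.000114). The median over the 4 was 5.21, over the other 77 members 0.70 and over the 649 other tested X-linked genes 1.95, of which 481 were higher and 2 lower, against 41.6% and 11.5% of all tested genes. Ndufa1 was higher by 1.77 (SE 0.30, adjusted p = 0.00289) and Prdx4 by 4.35 (SE 0.29, adjusted p = 0.000137). These 4 X-linked calls held in all 16 alternatives, quantile normalization and rescaling included.

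Outside chromosome X the largest differences were in Rpsa, Rpl22, Rpl14 and Rps19, genes that also fell in WT. Rpsa was higher by 1.94 (SE 0.20, adjusted p = 0.000454), Rpl22 by 1.94 (SE 0.19, adjusted p = 0.000344) and Rps19 by 1.84 (SE 0.26, adjusted p = 0.00146). The change from LZ to PD in WT and the genotype difference at PD share the WT PD libraries, so the values are given side by side and not correlated. Rps7 stood at 0.08 (SE 0.23, adjusted p = 0.781) and Rps28 at 0.38 (SE 0.30, adjusted p = 0.303), and both were called higher with quantile normalization, at 0.47 and 0.46. The lowest values were -1.14 for Rpl39l (SE 0.31, adjusted p = 0.0182), called lower, and -0.50 for Rpl10l (SE 0.29, adjusted p = 0.169).

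The genotype difference at PD was larger than that at LZ for 25 members by the interaction term of the fit, and smaller for 0 as called by limma, with 38 and 1 at an unadjusted p under 0.05. Among all tested genes 26.0% were higher and 3.97% lower. The median member stood at 0.64 and the median gene at 0.64. All 4 X-linked members were called: Rpl39 at 5.18 (SE 0.49, adjusted p = 0.00137), Rps4x at 5.18 (SE 0.66, adjusted p = 0.00266), Rpl36a at 5.02 (SE 0.43, adjusted p = 0.00119) and Rpl10 at 4.70 (SE 0.42, adjusted p = 0.00129). Lowest were Rpl39l at -1.16 (SE 0.43, adjusted p = 0.0808) and Rpl10l at -0.64 (SE 0.41, adjusted p = 0.253).

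This count also moved with settings and libraries. Quantile normalization gave 56 members higher and 1 lower, with the median gene at -0.07 and the members 1.21 above it, and rescaling gave 19 higher and 4 lower, with the median gene at 0.39 and the members at -0.14 against it, so their place relative to all genes turns with the scaling. Of all tested genes 4139 were called higher and 631 lower as deposited, 1594 and 1878 with quantile normalization, and 3279 and 1903 with rescaling. Without any 1 LZ library or either WT PD library, fewer members and fewer of all tested genes were called higher. Without either Cnot4-null PD library more of both were. Without Cnot4-null PD replicate 1 some members were called lower, and more of all tested genes than in the fit reported. Over these fits the median member lay between 0.16 below and 0.25 above the median gene.

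Of the copies of X-linked genes on other chromosomes 2 went the other way. Rpl10l, an intronless copy of Rpl10 on chromosome 12, had 94.2 and 115 (WT LZ), 119 and 111 (Cnot4-null LZ), 494 and 507 (WT PD) and 473 and 263 (Cnot4-null PD). All 4 PD libraries lie above all 4 LZ libraries. It rose by 2.25 in WT (SE 0.29, adjusted p = 0.000421) and by 1.61 in Cnot4-null (SE 0.29, adjusted p = 0.00405). Rpl39l, a copy of Rpl39 on chromosome 16 with its coding sequence in 1 exon, had 279 and 321 (WT LZ), 333 and 277 (Cnot4-null LZ), 1242 and 1378 (WT PD) and 810.0 and 436 (Cnot4-null PD). It rose by 2.12 in WT (SE 0.31, adjusted p = 0.000766) and by 0.97 in Cnot4-null (SE 0.31, adjusted p = 0.0364), the latter a call lost with testing all listed symbols or fitting the compared groups alone and without either Cnot4-null LZ library or Cnot4-null PD replicate 1 or either WT LZ library or either WT PD library (log2 change between 0.52 and 1.41 over 16 alternatives). These were the only 2 members called higher in WT.

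Rpl39l was also the only member called lower in Cnot4-null PD than in WT PD, -1.14 (SE 0.31, adjusted p = 0.0182), a call lost with testing all listed symbols or fitting the compared groups alone and without either WT PD library (log2 change between -1.58 and -0.69 over 16 alternatives). With rescaling 6 further members were called lower at PD, where 22.8% of all tested genes were. Without Cnot4-null PD replicate 1 further members were called lower too. Within Cnot4-null PD, replicate 1 was the higher for Rpl10l and Rpl39l and the lower for Rpl10, Rpl39 and Rps4x.

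The coding sequences show how alike the Rpl39 pair is. Each has 156 bases, and 23 differ, 16 of them at codon position 3, 5 at position 1 and 2 at position 2, so that 21 of 52 codons are affected. The longest stretch shared without a difference has 38 bases, shorter than the 50-base reads. Rpl39 lies on the minus strand of chromosome X, from 34622515 to 34625397 in mm9, and Rpl39l on the plus strand of chromosome 16, from 10170319 to 10175004. The sequences, from the GENCODE annotation of that build, are shown because a read can be told apart at these places, and capitals mark the bases that differ.
Rpl39: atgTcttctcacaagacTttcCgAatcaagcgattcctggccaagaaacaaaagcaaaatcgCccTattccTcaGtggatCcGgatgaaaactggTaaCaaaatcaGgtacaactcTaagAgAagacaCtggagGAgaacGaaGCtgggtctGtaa
Rpl39l: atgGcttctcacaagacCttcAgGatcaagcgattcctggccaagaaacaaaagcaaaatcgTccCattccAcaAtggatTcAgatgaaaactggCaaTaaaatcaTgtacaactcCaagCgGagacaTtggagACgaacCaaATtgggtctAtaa

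In WT the share of a pair held by the copy turned over between stages. Rpl39l made up 20.9 and 22.1% of the summed FPKM of Rpl39 and Rpl39l (WT LZ), 19.96 and 21.0% (Cnot4-null LZ), 98.9 and 99.4% (WT PD) and 71.1 and 41.9% (Cnot4-null PD). Rpl10l made up 9.99 and 13.4% of its pair (WT LZ), 10.5 and 12.2% (Cnot4-null LZ), 95.1 and 97.04% (WT PD) and 48.1 and 26.3% (Cnot4-null PD). The WT PD libraries are the highest for both pairs, and Cnot4-null PD lies between WT PD and LZ. Each share also depends on how many reads of each gene map uniquely, which differs within pairs, as given below.

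Tested over the 8 libraries with genotypes pooled, the log2 ratio of copy to parent was higher at PD by 5.54 for Rpl39l and by 4.84 for Rpl10l (4 libraries per stage, exact two-sided permutation test, p = 0.0286 for each, adjusted over 8 pairs 0.0457). In Rpl39l and Rpl10l the ratio was higher in 4 of 4 PD libraries than in any LZ library. By genotype the ratio of Rpl39l to Rpl39 changed by 8.71 in WT and 2.37 in Cnot4-null, and that of Rpl10l to Rpl10 by 7.51 and 2.16, differences between genotypes for which the ratio was not tested.

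**Figure D5:**
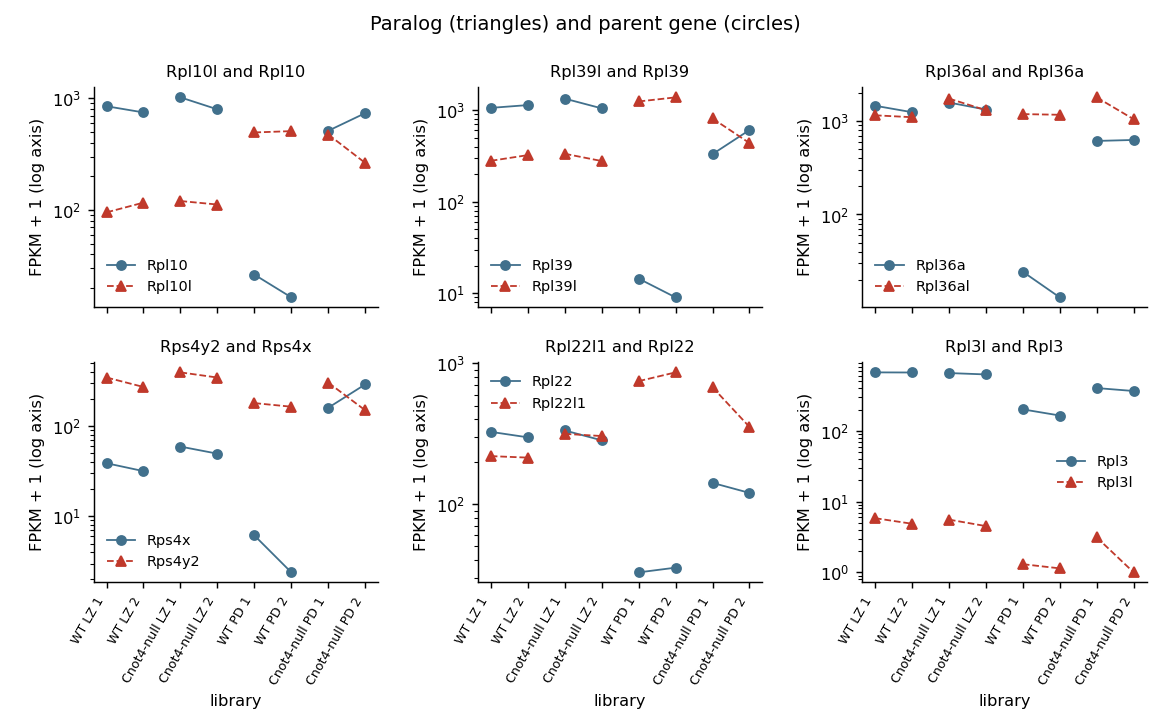
FPKM + 1 (log axis) of 6 paralogs (triangles) and their parent genes (circles) in each library, with a line joining the 2 libraries of a group. In WT PD the parents Rpl10, Rpl39, Rpl36a and Rps4x drop below 26 FPKM while the paralogs Rpl10l and Rpl39l rise.

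Further relatives of the X-linked genes lie outside the symbol rule. Rpl36al, a copy of Rpl36a on chromosome 12 with its coding sequence in 1 exon, had 1154 and 1100.0 (WT LZ), 1744 and 1309 (Cnot4-null LZ), 1188 and 1168 (WT PD) and 1796 and 1046 (Cnot4-null PD). Its level did not pass the test in WT, at 0.06 (SE 0.30, adjusted p = 0.899), so that its share of the pair went from 44.1 and 46.9% (WT LZ) and 52.4 and 49.6% (Cnot4-null LZ) to 98.1 and 99.0% (WT PD) and 74.6 and 62.5% (Cnot4-null PD). The log2 ratio to Rpl36a was 3.70 higher at PD (exact permutation test, p = 0.0286, adjusted 0.0457).

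Rps4y2 is an intronless copy of Rps4x on chromosome 6 and had 343 and 269 (WT LZ), 391 and 343 (Cnot4-null LZ), 178 and 163 (WT PD) and 301 and 148 (Cnot4-null PD). In WT it stood lower at PD without a call, at -0.83 (SE 0.33, adjusted p = 0.0655), and it was called lower with fitting the compared groups alone or quantile normalization or the replicate block and without either Cnot4-null PD library (log2 change between -1.34 and -0.45 over 17 alternatives). Its listed level was above that of Rps4x in 7 of the 8 libraries, with 90.1 and 89.8% of the pair (WT LZ), 87.1 and 87.6% (Cnot4-null LZ), 97.2 and 99.1% (WT PD) and 65.5 and 34.0% (Cnot4-null PD). The 2 levels are not measured alike, since far more of the Rps4x sequence has copies elsewhere, as given below. With genotypes pooled the ratio differed by -0.21 between stages (exact permutation test, p = 0.857, also 0.857 when adjusted). That value averages opposite changes, 2.36 in WT and -2.78 in Cnot4-null, whose difference was not tested.

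Pairs without an X-linked parent were of several kinds. Rpl22l1, the relative of Rpl22 on chromosome 3, had 218 and 213 (WT LZ), 314 and 303 (Cnot4-null LZ), 746 and 861 (WT PD) and 675 and 352 (Cnot4-null PD). It rose by 1.89 in WT (SE 0.30, adjusted p = 0.00130) while Rpl22 fell, and its share of the pair went from 40.2 and 41.7% in WT LZ to 95.9 and 96.2% in WT PD, with 48.6 and 51.8% in Cnot4-null LZ and 82.8 and 74.7% in Cnot4-null PD. The log2 ratio was 3.49 higher at PD (exact permutation test, p = 0.0286, adjusted 0.0457). In Cnot4-null Rpl22l1 stood at 0.66 (SE 0.30, adjusted p = 0.114) and Rpl22 fell by 1.24 (SE 0.19, adjusted p = 0.00217).

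Rpl3l, known from skeletal muscle and heart, was the lowest member, with 4.84 and 3.87 (WT LZ), 4.57 and 3.51 (Cnot4-null LZ), 0.307 and 0.140 (WT PD) and 2.13 and 0 (Cnot4-null PD). It fell by 2.13 in WT (SE 0.51, adjusted p = 0.00847), a call lost without WT LZ replicate 1 or WT PD replicate 2 (log2 change between -3.82 and -1.65 over 16 alternatives), and stood at -1.50 in Cnot4-null, called lower (SE 0.51, adjusted p = 0.0447), a call lost with testing all listed symbols or fitting the compared groups alone or a pseudocount of 0.1 and without either Cnot4-null LZ library or Cnot4-null PD replicate 2 or either WT LZ library or either WT PD library (log2 change between -3.12 and -0.68 over 15 alternatives). Its parent Rpl3, at the centre of peptide bond formation, had 669 and 667 (WT LZ), 655 and 626 (Cnot4-null LZ), 200.3 and 164 (WT PD) and 402 and 365 (Cnot4-null PD) and fell by 1.88 in WT (SE 0.19, adjusted p = 0.000148) and by 0.74 in Cnot4-null (SE 0.19, adjusted p = 0.0163), the latter a call lost with fitting the compared groups alone and without either Cnot4-null LZ library (log2 change between -0.81 and -0.67 over 16 alternatives). Rpl3 was higher in Cnot4-null PD than in WT PD by 1.08 (SE 0.19, adjusted p = 0.00351), and Rpl3l stood at 0.53 (SE 0.51, adjusted p = 0.388). Rpl3l never exceeded 0.718% of its pair, and the log2 ratio differed by -0.51 (exact permutation test, p = 0.114, adjusted 0.152), or by -2.16 with a pseudocount of 0.1 (exact permutation test, adjusted p = 0.0381).

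Rpl7l1, a relative of Rpl7 that works in ribosome assembly, fell by 2.15 in WT (SE 0.23, adjusted p = 0.000203) and Rpl7 by 0.98 (SE 0.21, adjusted p = 0.00516). Their log2 ratio was -1.19 at PD against LZ (exact permutation test, p = 0.0286, adjusted 0.0457). For Rps27l and Rps27 the ratio differed by -0.67 (exact permutation test, adjusted p = 0.457), and Rps27 itself was at -1.78 in WT (SE 0.76, adjusted p = 0.0815), called lower with quantile normalization and with the replicate block. Over the aligned coding sequences the pairs share 84.8% of bases for Rpl10l, 85.3% for Rpl39l, 87.9% for Rpl36al, 79.8% for Rps4y2, 73.3% for Rpl3l, 68.2% for Rpl22l1, 54.0% for Rpl7l1 and 76.1% for Rps27l. No pair shares a window of 50 bases there, so a full-length read from within the coding sequence and without errors cannot match both. Untranslated parts were not compared.

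Reads of many members can also match pseudogenes, and the authors kept uniquely mapped reads. For 80 members with an annotated coding transcript, every 50-base window of the coding sequence was searched on chromosomes 1 to 19, X and Y of mm9. In the median member 90.3% of windows had an exact copy elsewhere, in 28 members all of them, and in a few, Rpl39l and Rpl3l among them, none. The values of members with many copied windows are therefore uncertain: they can rest on few reads, on reads over splice junctions or on untranslated parts. Of the X-linked members Rpl10 and Rpl36a had all windows copied, Rps4x 90.3% and Rpl39 88.8%. Their relatives had fewer, Rpl36al 81.6%, Rps4y2 18.0%, Rpl10l 12.4% and Rpl39l none. In the pair of Rpl22 it was the reverse, with Rpl22 at 30.8% and Rpl22l1 at 81.9%. Keeping unique reads can thus remove more reads from 1 gene of a pair, so levels and shares within a pair are uncertain.

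Most members fell in WT both where few and where many windows had copies, and the difference between these sets was not tested. Among all tested genes 36.2% fell and 21.6% rose. Of the 14 with under 50% of windows copied 12 fell and 2 rose, with a median of -1.56, and of the 41 with at least 90% copied 29 fell and 0 rose, with 0 at an unadjusted p under 0.05 in limma's test and a median of -1.21. At PD 10 of the 14 were higher in Cnot4-null and 1 lower, and 23 of the 41 were higher and 0 lower, with 0 lower at an unadjusted p under 0.05, beside 41.6% higher and 11.5% lower among all tested genes. Across the 80 members the rank correlation of the copied share was 0.09 with mean FPKM and 0.07 with the change in WT, as a description across genes, which are not independent replicates.

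Many ribosomal protein mRNAs start with a run of pyrimidines, the TOP motif, by which growth signals set their translation. RefSeq start regions (build GRCm38.p6) were at hand for 60 of 81 members, 74.1%, too few for a share over the members, so none is given. The 30 bases around the start, 15 before and 15 after, are shown for Rpl35 (chromosome 2, minus strand), Rpl28 (chromosome 7, plus strand) and Rpl38 (chromosome 11, plus strand), and for the copies Rpl10l (chromosome 12, minus strand) and Rpl39l (chromosome 16, plus strand). Capitals mark CTTTC, searched on the transcribed strand alone, since a TOP motif has a direction. A mark among the first 15 letters, as the only one of Rpl39l and the first of Rpl35, lies before the annotated start and so outside the annotated mRNA. CTTTC occurs in this window in 4.76% of 27025 genes.
Rpl35: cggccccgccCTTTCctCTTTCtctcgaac
Rpl28: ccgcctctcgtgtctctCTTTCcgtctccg
Rpl38: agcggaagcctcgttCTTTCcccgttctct
Rpl10l: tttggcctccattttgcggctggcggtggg
Rpl39l: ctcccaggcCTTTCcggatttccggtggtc

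These windows were chosen by gene, so no share is drawn from them, and they say nothing of a factor or of translation. Of these genes Rpl35 and Rpl28 fell in WT, Rpl38 did not pass the test, and Rpl10l and Rpl39l rose. Whether the motif goes with the direction of change was not tested, and so few chosen genes cannot show it.

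Ribosomal protein genes outside the symbol rule were tested as a list of their own. Of 7 listed, 4 fell and 1 rose in WT (Rpl22l1), against 36.2% and 21.6% of all tested genes, 3 fell and 0 rose in Cnot4-null by limma, against 18.2% and 27.8%, with 4 lower and 0 higher at an unadjusted p under 0.05, and 3 were higher at PD in Cnot4-null, where 41.6% of all tested genes were. With quantile normalization 4 fell and 1 rose in Cnot4-null, against 30.6% and 19.1% of all tested genes. With rescaling 2 were higher and 1 lower at PD, against 34.7% and 22.8%. Fau, which makes a ubiquitin-like protein joined to a ribosomal protein, fell by 0.76 in WT (SE 0.22, adjusted p = 0.0215), a call lost with testing all listed symbols or rescaling to a shared median and without either WT LZ library or either WT PD library (log2 change between -1.08 and -0.37 over 17 alternatives). Rps27a, a member that makes ubiquitin joined to a ribosomal protein, stood at -0.44 (SE 0.26, adjusted p = 0.182), and it was called lower with fitting the compared groups alone or quantile normalization and without either Cnot4-null PD library (log2 change between -0.56 and -0.06 over 17 alternatives).

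Other translation genes have a TOP motif too. Of 18 tested, 8 fell and 2 rose in WT, against 36.2% and 21.6% of all tested genes, and the median of -0.21 was 0.11 above that of all genes. With quantile normalization the median lay 0.55 below. With rescaling 7 fell and 5 rose, against 31.3% and 26.3%, and the median lay 0.30 above, so the list's direction against all genes turns with the scaling. In Cnot4-null 1 fell and 1 rose from LZ to PD, against 18.2% and 27.8% (7 and 1 with quantile normalization, 3 and 1 with rescaling). At PD 6 were higher and 3 lower in Cnot4-null, against 41.6% and 11.5%, with quantile normalization 13 and 3, and with rescaling 4 and 5. Npm1, a nucleolar chaperone, fell by 1.00 (SE 0.22, adjusted p = 0.00605), a call lost without WT LZ replicate 1 (log2 change between -1.34 and -0.62 over 17 alternatives). Tpt1, which binds calcium and tubulin, fell by 1.09 (SE 0.21, adjusted p = 0.00285), and Eef1a1, the elongation factor that brings tRNA, stood at -0.18 (SE 0.19, adjusted p = 0.467).

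Of that list, 2 genes rose in WT. Pabpc1, the cytoplasmic poly(A)-binding protein, rose by 2.41 (SE 0.30, adjusted p = 0.000380), and Btf3, of the nascent chain complex, by 1.85 (SE 0.33, adjusted p = 0.00227). Btf3 was lower in Cnot4-null PD, at -1.18 (SE 0.33, adjusted p = 0.0217), a call lost with testing all listed symbols or fitting the compared groups alone and without either WT PD library (log2 change between -1.68 and -0.68 over 16 alternatives). Eif3e was at -0.89 (SE 0.32, adjusted p = 0.0482), a call lost with testing all listed symbols or a fit without the trend or fitting the compared groups alone and without either Cnot4-null LZ library or Cnot4-null PD replicate 2 or either WT LZ library or either WT PD library (log2 change between -1.32 and -0.47 over 16 alternatives).

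Ribosome biogenesis factors fell with the members in WT. Of 34, 25 fell and 3 rose, against 36.2% and 21.6% of all tested genes, with a median of -1.56, and in Cnot4-null 16 fell and 1 rose, against 18.2% and 27.8%. Nip7, which acts in rRNA processing, fell by 3.40 (SE 0.20, adjusted p = 2.32e-05) and Emg1, an rRNA methyltransferase, by 1.74 (SE 0.18, adjusted p = 0.000169). Those that rose were Sbds, which helps to release eIF6 from the large subunit, by 3.89 (SE 0.26, adjusted p = 3.39e-05), Wdr12 by 2.41 (SE 0.36, adjusted p = 0.000944) and Nop10 by 1.70 (SE 0.23, adjusted p = 0.000617). At PD 21 were higher and 3 lower in Cnot4-null, beside 41.6% and 11.5% of all tested genes (13 and 4 with quantile normalization, 16 and 5 with rescaling), among them Nip7 at 2.49 (SE 0.20, adjusted p = 0.000209), Sbds at -1.31 (SE 0.26, adjusted p = 0.00572) and Nop10 at -1.25 (SE 0.23, adjusted p = 0.00452), the last lost with fitting the compared groups alone (log2 change between -1.68 and -0.97 over 16 alternatives).

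Mitochondrial ribosomal protein genes, which serve the organelle's own ribosome, changed in both directions. Of 76, 36 fell and 14 rose in WT, against 36.2% and 21.6% of all tested genes, with a median of -0.52, and in Cnot4-null 27 fell and 4 rose, against 18.2% and 27.8%. With rescaling 28 fell and 25 rose in WT, against 31.3% and 26.3% of all tested genes. At PD 20 were higher and 7 lower in Cnot4-null, against 41.6% and 11.5% of all tested genes. With rescaling 11 were higher and 33 lower, against 34.7% and 22.8%. Their median at PD was -0.11, or 0.77 below that of all genes. Mrpl52, Mrpl33 and Mrpl20, the most abundant, stood at -0.34 (SE 0.30, adjusted p = 0.373), 0.61 (SE 0.38, adjusted p = 0.215) and 0.68 (SE 0.36, adjusted p = 0.143) in WT. Of those that rose Mrpl53 and Mrpl51 were the most abundant, with 2.11 (SE 0.32, adjusted p = 0.000917) and 0.93 (SE 0.30, adjusted p = 0.0320).

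Regulators of TOP mRNAs fell in most cases. The list holds activators (Rheb) and inhibitors (Tsc1) of the growth pathway that runs through mTOR, and also RNA-binding proteins (Larp1, Ssb and Cnbp). Its counts therefore give no direction for that pathway. Of 12, 10 fell in WT and 1 rose, against 36.2% and 21.6% of all tested genes, and at PD 7 were higher and 1 lower in Cnot4-null, against 41.6% and 11.5%. With quantile normalization 7 fell and 2 rose in WT, against 31.2% and 25.9% of all tested genes. At PD 3 were higher and 1 lower with that scaling, against 18.76% and 25.01%. Larp1, which binds the start of TOP mRNAs, was the gene that rose, by 2.19 (SE 0.18, adjusted p = 6.51e-05) in WT and by 1.54 in Cnot4-null (SE 0.18, adjusted p = 0.000850). It was the gene lower in Cnot4-null PD, at -0.63 (SE 0.18, adjusted p = 0.0222), a call lost with quantile normalization and without either WT PD library (log2 change between -1.05 and -0.57 over 16 alternatives). Ssb, the La protein, fell by 2.83 (SE 0.17, adjusted p = 2.58e-05), Rheb, the activator of mTOR, by 2.39 (SE 0.31, adjusted p = 0.000460) and Cnbp by 1.58 (SE 0.19, adjusted p = 0.000285). In Cnot4-null 5 fell and 1 rose from LZ to PD, against 18.2% and 27.8% of all tested genes.

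Dedicated chaperones and export factors of ribosomal proteins form a list of 10. Of these, 7 fell and 1 rose in WT (36.2% and 21.6% of all tested genes), 6 fell and 1 rose in Cnot4-null (18.2% and 27.8%). At PD, where 41.6% of all tested genes were higher and 11.5% lower, 5 were higher and 0 lower in Cnot4-null by limma, with 0 lower at an unadjusted p under 0.05. Nmd3, the export adaptor of the large subunit, fell by 1.36 (SE 0.28, adjusted p = 0.00451), and Nap1l1, a histone and ribosomal protein chaperone, by 1.04 (SE 0.19, adjusted p = 0.00238). Aamp, the relative of a yeast chaperone of Rpl10, rose by 0.93 (SE 0.17, adjusted p = 0.00278), a call lost with quantile normalization (log2 change between 0.41 and 1.31 over 17 alternatives). With quantile normalization none rose in WT, where 25.9% of all tested genes did. With rescaling 4 of the list were higher at PD and 3 lower, against 34.7% and 22.8% of all tested genes.

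Cnot4 itself was listed at 36.0 and 34.9 (WT LZ), 43.2 and 34.6 (Cnot4-null LZ), 76.6 and 73.1 (WT PD) and 65.9 and 53.5 (Cnot4-null PD). The 2 genotypes overlap at LZ, and the PD values of the null libraries lie just below those of WT. One level per gene cannot show the loss of a single exon, so these values do not check the genotype of the libraries.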

How the data were processed

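The data are 8 libraries of sorted mouse spermatocytes, 2 per group. Per the labels and methods, the authors trimmed reads to 50 bases, mapped them to mm9 with TopHat 2.1.1, kept unique reads and deposited FPKM per gene from Cufflinks 2.2.1 with UCSC gene models. FPKM are not counts, so log2(FPKM + 1) of the 15899 genes above 1 FPKM in at least 1 library was fitted with limma 3.58.1 in R 4.3.3, with 1 coefficient per group, eBayes with a trend and 4 residual degrees of freedom. The p-values were adjusted by Benjamini-Hochberg within each of 5 comparisons (PD against LZ in each genotype, genotype at each stage, and the interaction). Shares and paralog ratios were tested by exact permutation of the 8 libraries between stages, without regard to genotype, with scipy 1.17.1 in Python 3.11.15.

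Alternatives were no filter, a mean FPKM of at least 5, a pseudocount of 0.1, quantile normalization, rescaling to the same median, no trend, the compared groups alone, the replicate number as a block and each library left out in turn. Members and lists were chosen with earlier results of these data known. Named genes were both genes of each paralog pair, the X-linked members, Rps7, the 2 highest and 2 lowest values per comparison, the 3 highest and 3 lowest members, members called against the majority, the 3 highest and up to 2 opposed genes of each other list, the top gene of each marker list, and Cnot4. Chromosomes came from GENCODE vM1, in which 21956 of 23235 symbols were matched. Lists held older symbols where the files do (Emr1 for Adgre1, Gnb2l1 for Rack1), and Rhox5 and Meiob are not listed. Coding sequences were aligned with Biopython 1.88, at 1 per match, -1 per mismatch, -3 to open a gap and -0.5 to extend it.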

Additional observations from a re-analysis of the deposited data

Results flagged for a closer look

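The interaction term of the limma fit tests whether the genotype difference at PD differs from that at LZ. It called 25 of 81 ribosomal protein genes, all with a larger value at PD, against 26.0% higher and 3.97% lower among all tested genes. The median member and the median gene both stood at 0.64 as deposited, and the distance between them changed with the scaling. Among the named members the log2 differences were 5.18 for Rpl39, 5.18 for Rps4x, 5.02 for Rpl36a, 4.70 for Rpl10, 1.99 for Rpsa, 1.96 for Rpl22, 1.79 for Rps2, 1.75 for Rps3a, 1.69 for Rps16, 1.63 for Rplp2, 1.54 for Rps19 and 1.14 for Rpl3. The call of Rpl3 was lost without either Cnot4-null LZ library or either WT LZ library or either WT PD library (log2 change between 0.69 and 1.57 over 15 alternatives), that of Rplp2 with testing all listed symbols and without Cnot4-null LZ replicate 2 or WT LZ replicate 1 or either WT PD library (log2 change between 1.18 and 2.15 over 15 alternatives) and that of Rps19 with testing all listed symbols and without either Cnot4-null LZ library or WT LZ replicate 1 or either WT PD library (log2 change between 1.10 and 1.94 over 15 alternatives). Without WT PD replicate 2 fewer members and fewer of all tested genes were called higher.

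In other lists the same term called 3 of 18 other TOP mRNA genes higher and 1 lower, 15 of 34 ribosome biogenesis factors higher and 1 lower, 12 of 76 mitochondrial ribosomal protein genes higher and 4 lower, 6 of 12 TOP regulators and 4 of 10 chaperones higher, and 349 of 649 other X-linked genes higher, beside the 26.0% of all tested genes. The Cnot4-null PD libraries that enter each of these differences also held the high Leydig cell and spermatid markers, whose part was not tested.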

How the results depend on the processing

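Each group has 2 libraries and no read counts were used, so small differences cannot be seen and a library left alone in its group is assumed to vary like the other groups. The interaction has no value from the compared groups alone, since it needs all 4. From LZ to PD in WT the counts of members stayed within 1.5 times of 59 lower and 2 higher in all 17 alternatives, and at LZ all 17 gave 0 calls by limma, as did the fit reported, with 1 higher and 1 lower there at an unadjusted p under 0.05. The named genes have 134 pairs of gene and comparison, with 2191 values under the alternatives. Of these, 1993 stayed on their side of the threshold, 140 lost the call, 58 gained one and no called value turned. The sign was opposite in 24 values, called neither there nor in the fit reported. Of the other values, which are counts and medians of members, their share and the ratios of copies, 231 held, 41 moved, 48 became weaker and 1 stronger, and none turned. The place of members or lists against all genes is not among them, and at PD it turned with the scaling and with other choices. The members stood 0.07 above the median gene as deposited, 0.09 below it with rescaling or without Cnot4-null PD replicate 1, and 0.27 below with a pseudocount of 0.1. They stood 1.19 above it with quantile normalization, 0.57 with no filter, 0.45 with a mean FPKM of at least 5 and 0.34 without Cnot4-null PD replicate 2.

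For PD against LZ in Cnot4-null, 3 members higher became 1 and 40 lower became 22 with no filter, and 3 lower with the compared groups alone. Of all genes tested in these 2 fits, 10.8% and 7.94% were lower. At PD, 46 higher became 23 with the PD groups alone, where 32.6% of all tested genes were higher. There and with no filter 1 lower became 0, and with rescaling 7, where 22.8% of all tested genes were lower. For the interaction, 25 higher became 56 with quantile normalization, and 0 lower became 1 with it and 4 with rescaling. Leaving out 1 library gave 1 to 2 higher and 6 to 63 lower in Cnot4-null, 25 to 55 higher and 0 to 4 lower at PD, and 10 to 39 higher and 0 to 5 lower in the interaction. The fewest lower in Cnot4-null came without Cnot4-null LZ replicate 1 (6; 15 without replicate 2, 24 without any WT library) and the most without Cnot4-null PD replicate 1 (63). At PD, 25 were higher without WT PD replicate 1 or 2, where 0 were lower, and 4 were lower without Cnot4-null PD replicate 1. The interaction called 16 without Cnot4-null LZ replicate 1, 11 without replicate 2, without WT LZ replicate 1 or without WT PD replicate 1, 10 without WT PD replicate 2 and 39 without Cnot4-null PD replicate 2, and 5 lower without Cnot4-null PD replicate 1.

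The median change of members in WT, -1.31, was -1.65 with quantile normalization and -0.93 with rescaling, at PD 0.74 became 1.14 and 0.33, and in the interaction 0.64 became 1.15 and 0.24. For the members other than the X-linked -1.23 in WT became -1.58 and -0.84, and 0.70 at PD became 1.11 and 0.28.

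The fall of the ribosomal protein share ranged from -11.1 to -9.53 points without 1 library, where 3 against 4 cannot give an exact p below 0.0571, so its call is lost by construction. The same holds for the ratios of Rpl10l (3.82 to 5.96) and Rpl39l (4.33 to 6.90). The ratio of Rpl3l became -2.16 with a pseudocount of 0.1. The cause of the changes with scaling was not tested.

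Replicates share only a number. Differences between replicate 1 and replicate 2 correlated between groups at -0.07 to 0.19 over tested genes and at -0.24 to 0.48 over the 81 members. With the replicate block, members called were 61 lower in WT, 48 lower in Cnot4-null, 48 higher at PD and 30 higher in the interaction. The shares of all tested genes there were 35.6%, 17.6%, 40.6% and 23.7%. After the marker values were seen, a fit without both Cnot4-null PD libraries was added. It called 64 members lower and 2 higher in WT, against 39.6% and 24.4% of all tested genes.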
